A study of Drosophila melanogaster with 16 samples.

Results

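The 4 RNA libraries numbered replicate 1, 1 in each of 4 tissue and genotype groups, were set against the 12 libraries numbered 2, 3 and 4, out of 16 in all. The number comes from the sample titles, which do not say what a number shares (a day, a collection of larvae, a sequencing run) or that the numbers follow an order in time. Number 1 was chosen by its place in these same expression values, since its displacement from the other numbers was already known. The differences between number 1 and the other numbers are therefore a description of these libraries, and no p-value is given for them. Tests are given only for whether the number 1 difference depended on tissue and whether it depended on genotype. These use the same libraries and genes as that choice, so their p-values are not independent of it.

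The animals were Drosophila melanogaster females from a balanced dLmx1a knock-out stock kept at 25 °C and taken at the change from the last larval stage to the prepupa. In order, the groups were fat body with ovaries labelled homozygous for dLmx1a delta1, fat body labelled homozygous, fat body with ovaries heterozygous for delta1 over the balancer TM3-GFP, and heterozygous fat body. All 4 groups carried delta1, so no library was free of the allele. Larvae were sorted by the GFP of the balancer, and the heterozygotes also carried the balancer chromosome itself. In the samples titled homozygous the genotype entry gives the second allele a number that changes from sample to sample, and the titles were followed. Whether a library held 1 animal or a pool, and whether equal numbers share animals, is left unsaid by the labels, so the spread between libraries may be technical.

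The larval fat body stores protein, fat and glycogen, makes the serum proteins of the blood, and combines the roles of vertebrate liver and adipose tissue. At the end of larval life, pulses of the steroid hormone ecdysone act through the receptor EcR and its partner usp. The receptor switches on a small set of early regulators, among them br, Eip74EF, Eip75B, Hr4 and Hr46, which in turn drive autophagy, an arrest of feeding and growth, and the breakup of the fat body into loose cells. Transcripts of these genes change within hours, so tissue taken at slightly different ages can differ in them. No measurement of the age of the larvae accompanies the libraries, and whether the numbers differ in developmental timing was not tested.

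The libraries held 19022106 to 29741067 reads on genes in number 1 and 21174083 to 32755588 in numbers 2 to 4. Between 10371 and 10970 genes had a read in number 1 libraries, against 10105 to 10928 in numbers 2 to 4. The 6 storage protein genes Fbp1, Fbp2, Lsp1alpha, Lsp1beta, Lsp1gamma and Lsp2, which mark fat body, together took 50.1% to 58.7% of the normalised counts in number 1 and 49.7% to 56.7% in numbers 2 to 4, so fat body markers were abundant in every library. Levels are given as normalised counts, which are reads on a gene divided by a size factor for the library. They are not divided by gene length and are compared only within a gene. In such bulk tissue, fewer cells of a type and less RNA per cell cannot be told apart. Fat body labelled homozygous replicate 1 was the shallowest library and carried 15.6% of all variation within groups, the largest share of the 16, followed by fat body labelled homozygous replicate 2 with 11.1%. Counts of called list members are given again with that library left out.

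Once the mean of each group was removed, the 4 number 1 libraries lay at one end of the first principal component, which carried 34.0% of the variance over the 7824 genes whose normalised counts averaged 10 or more. Their positions were −52.4 for fat body labelled homozygous, −33.8 for heterozygous fat body, −24.3 for fat body with ovaries labelled homozygous and −9.61 for heterozygous fat body with ovaries. The other 12 libraries lay between −0.522 and 34.8. The 2 sets did not overlap on this axis, and within number 1 the pair without ovaries lay farthest out. The number 2 libraries of the first 3 of these groups, at 34.8, 18.6 and 17.9, lay beyond all of numbers 3 and 4 (−0.522 to 12.03), while heterozygous fat body with ovaries replicate 2, at 2.37, lay among them. The second component (14.8%) held number 1 between −6.15 and −3.83, inside the range of −20.4 to 28.3 of the others.

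**Figure D1:**
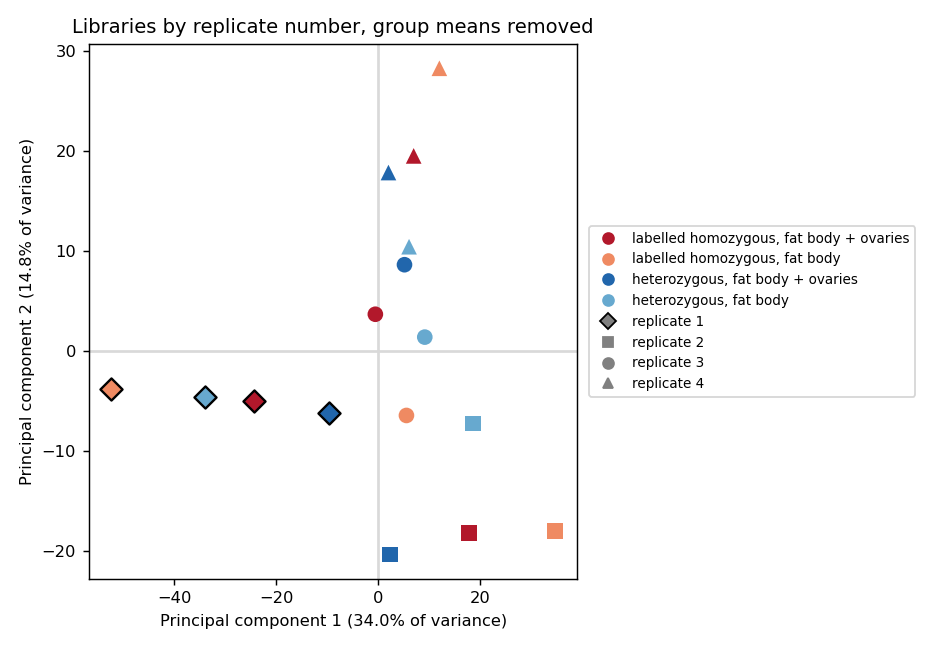
Position of the 16 libraries on the first and second principal components of log2 normalised counts over 7824 genes, each with the mean of its tissue and genotype group removed. Colours give the group and symbols the replicate number. Number 1 (outlined diamonds) lies between −52.4 and −9.61 on the first component and every other library at −0.522 or above.

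As a share of all variation within groups, number 1 against the rest took 25.7%, number 2 against the rest 18.2%, number 3 7.54% and number 4 12.4%. Differences between number 1 and numbers 2 to 4 were estimated by a limma fit on log2(normalised count + 1) with the 4 groups as blocks, and they are on that scale, which understates the change of low genes. A gene was called where its adjusted p (Benjamini-Hochberg over 7824 genes) was under 0.05. By this rule 2501 genes (32%) were called, 1311 higher in number 1 (16.8%) and 1190 lower (15.2%). The median absolute difference of the called genes was 0.46, with 226 called genes above 1 and 90 below −1, while the median over all genes was −0.0009. The same fit called 134 genes (1.71%) for number 2 against the other 12 libraries, 35 (0.447%) for number 4 and 0 for number 3. For number 3, 330 genes were at an unadjusted p under 0.05 and edgeR on the recovered reads also called 0. Since number 1 was chosen for this separation, its count shows how large the separation is and no more.

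The count depended on which libraries were used and on what was taken as the unit. Without fat body labelled homozygous replicate 1 it was 633 (306 higher and 327 lower of 7824), and without heterozygous fat body replicate 1 it was 1274. Within the fat body libraries alone it was 1909, against 1 within the libraries of fat body with ovaries, and it was 1151 within libraries labelled homozygous and 0 within heterozygous ones, where 1421 genes were at an unadjusted p under 0.05. The tests of whether the difference depended on tissue or genotype called 0 genes each. If each number were 1 collection, the comparison would be 1 collection against 3. With the numbers as units in limma, 0 genes were called and 1905 were at an unadjusted p under 0.05; an exact permutation of 4 numbers cannot give a p below 0.25 for any gene. With the number as a random block in limma (correlation 0.127), 1422 genes were called, 748 higher and 674 lower. Calls over all genes thus fell in both of these fits. List counts given below without fat body labelled homozygous replicate 1, or with the random block, are to be read against that fall.

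A second count needs no model. In 1308 of 7824 genes (16.7%) the number 1 library lay outside the range of the other 3 on the same side in all 4 groups, above them for 706 genes (9.02%) and below them for 602 (7.69%). The SD over genes of the number 1 difference was 0.514 in fat body with ovaries labelled homozygous, 0.836 in fat body labelled homozygous, 0.387 in heterozygous fat body with ovaries and 0.618 in heterozygous fat body. Between groups, which share no library, these differences correlated across the 7824 genes with Pearson's r of 0.253 to 0.676. The highest r joined the fat body groups of the 2 genotypes and the lowest joined the groups with ovaries. Genes are not independent replicates, and equal numbers may share a preparation, so r is given as a description.

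Early regulators of the ecdysone response were mostly lower in number 1. Of 20 tested genes on a list of the receptor, its partners and early targets, 13 (65%) were called lower and 2 (10%) higher, with a median difference of −0.52, while 15.2% of all genes were called lower and 16.8% higher. Without fat body labelled homozygous replicate 1, 5 were called lower and 1 higher, and the median was −0.44. The nuclear receptor gene Hr4 (X:1941940-2007956, dm6) is induced early by ecdysone. It had 798 normalised counts in fat body with ovaries labelled homozygous, 948 in fat body labelled homozygous, 1541 in heterozygous fat body with ovaries and 1522 in heterozygous fat body in number 1, against 1245 to 5175 (median 2838) in numbers 2 to 4. The number 1 library was below the other 3 in 3 of the 4 groups, the exception being heterozygous fat body with ovaries, where replicate 2 was lower still at 1245. Its difference was −1.29 ± 0.22 (limma SE, 4 against 12 libraries).

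The same exception held for several other members of the list. Eip78C, a nuclear receptor of the early response, had 862, 1071, 1820.4 and 1355 normalised counts in the 4 number 1 libraries in the group order given above, against 1616 to 3419.7 (median 2533) in numbers 2 to 4. Its group differences were −1.28, −1.501, −0.06 and −1.14. br, the Broad-Complex zinc finger gene that sets pupal fate, had 6916, 7485, 10799.5 and 8461, against 10604 to 15006 (median 12696). For br the group differences were −0.73, −0.93, −0.03 and −0.70, so heterozygous fat body with ovaries was close to its other replicates and the 3 other groups were not. tai, a coactivator of the ecdysone receptor, differed by −0.82, −0.83, −0.01 and −0.82 in the same groups.

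Eip93F, which encodes a regulator of autophagy and of the death or remodelling of larval tissue and was picked out after its values were seen, had the largest negative difference on the list (−1.60 ± 0.50). It had 97.2, 74.96, 126 and 153 normalised counts in number 1 and 89.4 to 933 (median 428) in numbers 2 to 4. The number 1 library was the lowest of its group in both fat body groups but not in the groups with ovaries, where replicate 2 was at 89.4 and 117. Other members called lower were Hr46 (−1.02), Eip71CD (−0.90), Eip75B (−0.64), Hr39 (−0.63), Eip74EF (−0.44) and Kr-h1 (−0.64), the last also a target of juvenile hormone.

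Not every gene of the pathway was lower. EcR, the hormone receptor itself, had 1495, 2367, 1759 and 2103 normalised counts in number 1, against 1004 to 1976 (median 1269) in numbers 2 to 4. Number 1 was the highest library in 3 of the 4 groups, and the difference was 0.49 ± 0.15. Eip55E, an ecdysone-induced gene for an enzyme of sulfur amino acid metabolism, was higher in all 4 groups (0.71 ± 0.16). usp, the partner of EcR, was at −0.11, and ftz-f1, which marks the middle of the prepupal period, at 0.58; neither was called. Of 11 tested genes on a list of late larval and prepupal inducible genes, ImpL2, which encodes a secreted binder of insulin-like peptides, was the 1 called (−0.83 ± 0.18), and 0 were called with fat body labelled homozygous replicate 1 left out. Of 10 tested clock genes, 2 (20%) were called higher (per 0.66, Pdp1 0.78) and 4 (40%) lower, cyc among them at −0.70. Over all genes 16.8% were called higher and 15.2% lower. With that library left out, 0 clock genes were called higher and 1 lower. Of 9 tested genes of the juvenile hormone response, 3 (33.3%) were called higher, FK506-bp1 most (1.17 ± 0.31). The Kr-h1 already given was the 1 (11.1%) called lower, and with that library left out the counts were 2 and 1.

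**Figure D2:**
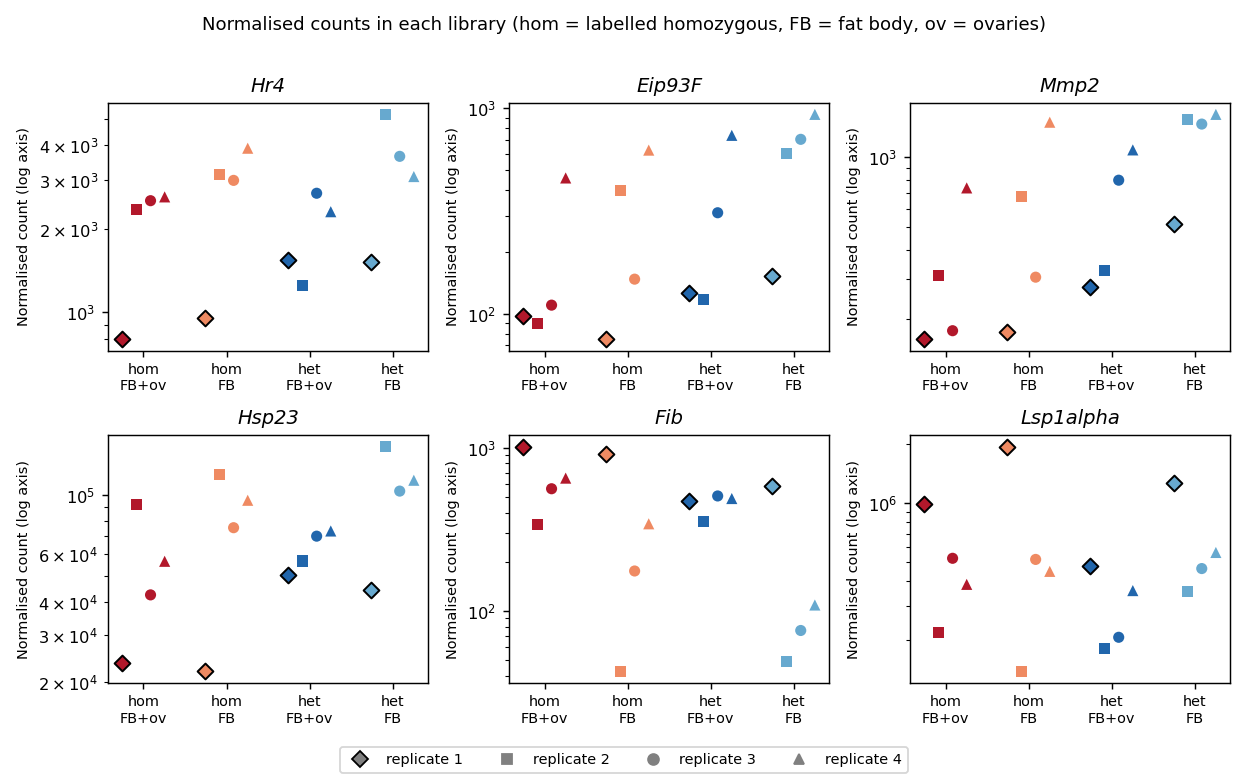
Normalised counts (log axes) of Hr4, Eip93F, Mmp2, Hsp23, Fib and Lsp1alpha in each of the 16 libraries, by group, with replicate number as symbol and group as colour. Number 1 (outlined diamonds) is the lowest library of its group for Mmp2 and Hsp23 and the highest for Lsp1alpha in all 4 groups, while for Hr4, Eip93F and Fib heterozygous fat body with ovaries lies among its other replicates.

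Among genes of autophagy, the turnover of cell contents in lysosomes, 10 of 20 tested (50%) were called lower and 0 higher, with a median of −0.20. Over all genes 15.2% were called lower and 16.8% higher. Without fat body labelled homozygous replicate 1 the lower calls were 4, beside 327 of all 7824 genes. Atg8a, whose product coats the autophagosome, had 3557, 3529, 5602 and 5464 normalised counts in number 1, against 3930.0 to 7893 (median 6212) in numbers 2 to 4. Number 1 was the lowest library in every group, by −0.43 ± 0.09 over all. Atg2 (−0.53), Atg5 (−0.34) and the cargo receptor ref(2)P (−0.46) were also called lower. The kinase gene Atg1 was at 0.21 and was not called.

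Genes of matrix and adhesion went both ways. Mmp2 encodes a membrane-bound matrix metalloproteinase that takes part in separating fat body cells. It had 164, 176, 275 and 516 normalised counts in number 1, against 179 to 1533 (median 768) in numbers 2 to 4. Number 1 was the lowest library in all 4 groups, with a difference of −1.43 ± 0.40. shg, the gene of E-cadherin, had 1121, 623, 1458 and 1125 against 1574 to 3504 (median 2404), a difference of −1.17 ± 0.20, and the 2 sets of libraries did not overlap. The basement membrane genes Ndg (0.93), vkg (0.48) and Cg25C (0.46), which encode nidogen and the 2 chains of collagen IV, were called higher, and trol, the perlecan gene, lower (−0.35). Of 13 genes on this list, 3 (23.1%) were called higher and 2 (15.4%) lower, near the 16.8% and 15.2% over all genes. Without fat body labelled homozygous replicate 1, 0 were called either way.

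Of the 6 storage protein genes, 2 (33.3%) were called higher in number 1 and 0 lower, beside 16.8% and 15.2% over all genes. Lsp1alpha (X:12490291-12492982, dm6), which encodes a subunit of a larval serum protein made by the fat body and stored for the pupa, had 986695, 1949970, 476291 and 1275670 normalised counts in number 1. The range in numbers 2 to 4 was 138340 to 560949 (median 371832). Number 1 was the highest library in each group, by 1.65 ± 0.36. Lsp1beta was also highest in every group (0.69 ± 0.21). Lsp1gamma (0.01), Lsp2 (−0.12), Fbp2 (0.49) and Fbp1 (−0.43), the gene of the receptor that takes serum proteins back into the fat body, were not called, although number 1 was the lowest library for Fbp1 in all 4 groups. Neither Lsp1 gene was called without fat body labelled homozygous replicate 1.

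The largest difference of all named genes was that of CR45348, a non-coding gene at 2L:897453-898050 (dm6) next to Lsp1beta at 2L:898500-901316. It had 109, 164, 26.1 and 116 normalised counts in number 1 and 1.02 to 30.1 (median 6.26) in numbers 2 to 4, with number 1 highest in every group (3.44 ± 0.72). The strand setting of the counting is not given, so reads running past the ends of Lsp1beta cannot be told apart from reads of CR45348.

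Detoxification enzymes leaned upward. Of 39 tested, 12 (30.8%) were called higher and 1 (2.56%) lower (median 0.44), beside 16.8% and 15.2% over all genes. Without fat body labelled homozygous replicate 1, 1 was called higher, beside 306 of all 7824 genes. With the number as a random block, 5 were called higher, beside 748 of all genes. GstD6, a glutathione S-transferase gene, had 245, 503, 28.2 and 159 normalised counts in number 1, against 1.66 to 60.2 (median 17.6) in numbers 2 to 4. Number 1 was highest in each group and the difference was 3.15 ± 0.49. Its neighbour GstD7 was also higher (1.90 ± 0.54), with 208 of its normalised counts in fat body labelled homozygous replicate 1 and 31.1 or fewer in the other number 1 libraries. Close copies in the GstD and GstE clusters may share reads, so the split between them is uncertain. GstE7 (1.29) and the peroxiredoxin gene Jafrac1 (0.79) were also called higher. Cat (−0.06) and Sod (0.01) were not called.

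Genes of fat synthesis were higher where they were called. Of 18 on the lipid list, 6 (33.3%) were called higher and 0 lower (median 0.26), beside 16.8% and 15.2% over all genes. Without fat body labelled homozygous replicate 1, 3 were called higher, beside 306 of all 7824 genes. ACC, whose product makes malonyl-CoA for fatty acid synthesis, had 2395, 3347, 1066 and 546 normalised counts in number 1, against 219.7 to 686 (median 455) in numbers 2 to 4. Its group differences were 2.31, 3.67, 0.82 and 0.47, larger in the 2 groups labelled homozygous. The test of that genotype dependence over all genes gave 2.34 ± 0.41 with an adjusted p of 0.256 (limma). ATPCL, which supplies acetyl-CoA, was higher in every group (1.17 ± 0.19), as was mdy, the gene of a diacylglycerol acyltransferase (1.05 ± 0.17). The lipid droplet gene Lsd-2 (0.58) and the sterol regulatory element-binding protein gene HLH106 (0.61) were called higher, and the lipase gene Hsl (−0.06) was not called.

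In carbohydrate and nitrogen metabolism, 8 of 15 glycolysis genes (53.3%) were called higher and 0 lower (median 0.27), beside 16.8% and 15.2% over all genes. Leaving out fat body labelled homozygous replicate 1 gave 2 called higher (median 0.20), beside 306 of all 7824 genes. The number as a random block gave 3, beside 748 of all genes. Gpdh, which makes glycerol phosphate, had 4194, 4658, 3416 and 3406 normalised counts in number 1 against 1659.7 to 3068 (median 2355), so that the 2 sets did not overlap. The glutamate dehydrogenase gene Gdh was higher by 1.59 ± 0.43, with 11374, 17676, 5559.7 and 10398 in number 1 against 1527 to 8119 (median 4337). Inos, which makes inositol phosphate from glucose phosphate, was at 384, 1399.8, 526 and 659 against 97.8 to 329 (median 192), again without overlap (1.79 ± 0.33). Cbs, for a step from homocysteine to cysteine, was higher in every group (1.89 ± 0.46). Glut1, a sugar transporter gene, was lower in every group, with 132, 122, 267 and 473 against 135 to 1647 (median 534) and a difference of −1.42 ± 0.34. Of 18 genes of the response to starvation and sugar, 3 were called higher, the glycogen phosphorylase gene GlyP among them (0.59 ± 0.13), and 2 lower. These shares, 16.7% higher and 11.1% lower, lie near or below the 16.8% and 15.2% over all genes, and 1 was called in each direction with fat body labelled homozygous replicate 1 left out.

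Insulin and TOR genes were called lower in 7 of 18 cases (38.9%) and higher in 1 (5.56%), beside 15.2% and 16.8% over all genes. With fat body labelled homozygous replicate 1 left out, 4 were called lower and 0 higher, beside 327 and 306 of all 7824 genes. InR, the insulin receptor gene, had 475, 514, 667 and 707 normalised counts in number 1, against 729.9 to 904 (median 789.6) in numbers 2 to 4. The sets did not overlap, and the difference was −0.47 ± 0.08. Thor, which encodes the translation inhibitor 4E-BP, was at 10201, 12113, 22281 and 13727 against 18256 to 30736 (median 23719.6). For Thor heterozygous fat body with ovaries was the exception once more, with a group difference of 0.02 against −1.15 to −1.01 in the other groups. foxo (−0.40) and Akt1 (−0.41) were called lower, Tor (−0.10) was not called, and srl, the PGC-1 homologue that promotes mitochondrial gene expression, was called higher (0.94).

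Mitochondrial genes on both lists were called in 1 direction only. Of 56 respiratory chain genes tested, 41 (73.2%) were called higher and 0 lower (median 0.35). Of 72 mitochondrial ribosomal protein genes 49 (68.1%) were called higher and 0 lower (median 0.43), beside 16.8% and 15.2% over all genes. Without fat body labelled homozygous replicate 1, 23 and 10 of them were called higher, beside 306 of all 7824 genes in that fit. With the number as a random block 33 and 22 were called higher, beside 748 of all genes. ND75, for a subunit of complex I, had 1935, 2304, 1433 and 1636 normalised counts in number 1 against 1229 to 1433 (median 1331), and it was highest in every group (0.45 ± 0.07). mRpL44, of the large mitochondrial subunit, had 296, 311, 275 and 241 against 134 to 227 (median 171), with no overlap (0.65 ± 0.10). Cytosolic ribosomal proteins behaved otherwise, since 2 of 84 were called higher and 0 lower, with or without that library, and the median was 0.03. Of 25 translation factor genes, 12 (48%) were called higher and 1 (4%) lower, against 5 and 0 with that library left out. Among them eEF1delta, for a subunit of the elongation factor that recharges eEF1A, was highest in every group at 7640.0, 10967, 5323 and 7243 against 3244 to 6167 (median 4401), a difference of 0.79 ± 0.09.

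Proteasome genes, for the complex that degrades tagged proteins, were lower by small and even amounts. Of 32 tested, 29 (90.6%) were called lower and 0 higher, with a median of −0.27, beside 15.2% and 16.8% over all genes. Without fat body labelled homozygous replicate 1, 17 were called lower, beside 327 of all 7824 genes. With every library scaled to the same total, 21 were called lower. Rpn6, a lid subunit, had 2688, 2983, 2815 and 3428 normalised counts in number 1, against 3102 to 5445 (median 3991) in numbers 2 to 4, and number 1 was lowest in each group (−0.49 ± 0.07). Prosbeta3 (−0.40) and the ATPase subunit Rpt6 (−0.36) were likewise lowest in each group. Vacuolar ATPase genes showed no such shift, with 1 of 18 called lower (0 with that library left out) and a median of −0.07.

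Genes for ribosome assembly in the nucleolus had the largest median difference of the lists with more than 5 tested genes. The list was drawn up after several of its genes were seen among the largest differences, so its count repeats that choice. Of 27 tested, 24 were called higher and 0 lower (median 1.21). Without fat body labelled homozygous replicate 1, 2 were called, although the median was 0.91. Fib, the gene of fibrillarin, which methylates ribosomal RNA, had 1016, 919, 471 and 581 normalised counts in number 1 against 42.5 to 650.4 (median 339.7) in numbers 2 to 4. Its group differences were 1.03, 2.74, 0.09 and 2.96, so the shift was large in both fat body groups and near 0 in heterozygous fat body with ovaries. RpI1, for the largest subunit of RNA polymerase I, was highest in every group (1.37 ± 0.34), and dm, the Myc gene, which drives ribosome production, was called higher (0.68 ± 0.23). The medians of the list by group were 0.75, 1.86, 0.17 and 1.89 in the group order given above.

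**Figure D3:**
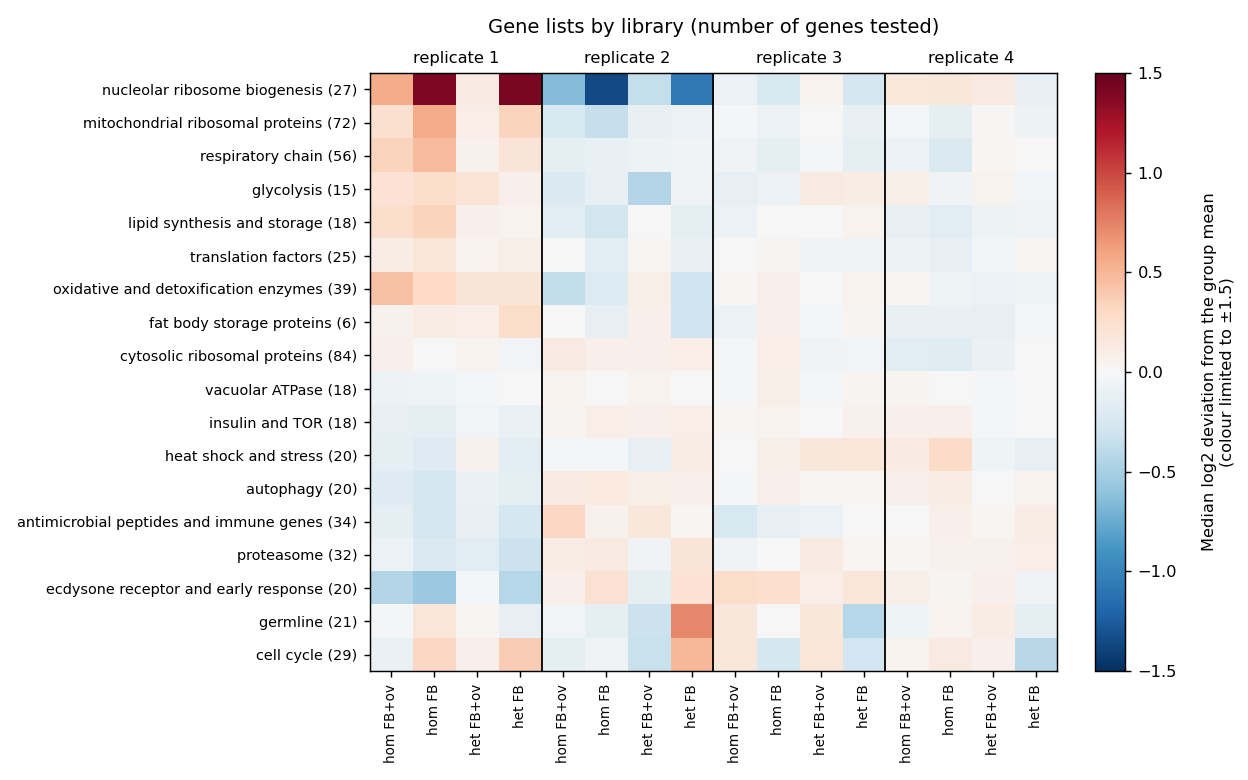
Median log2 deviation from the group mean over the genes of each of 18 lists (rows, with the number tested) in each library (columns, by replicate number), with colour limited to ±1.5. Number 1 columns are red for the nucleolar and mitochondrial ribosomal lists, most deeply in both fat body groups. For the ecdysone list they are blue in all groups but heterozygous fat body with ovaries, and number 2 columns are blue for the nucleolar list.

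Of 20 heat shock and stress genes, 4 (20%) were called lower and 1 (5%) higher, beside 15.2% and 16.8% over all genes. With fat body labelled homozygous replicate 1 left out, 1 was called lower and 0 higher. Hsp23, a small heat shock protein gene that ecdysone is also known to induce, had 23553, 21953, 50359.8 and 44038 normalised counts in number 1 against 42390.4 to 151591 (median 83934), lowest in every group (−1.33 ± 0.24). Hsp26 (−0.96) and Hsp27 (−0.87), its neighbours with the same known response, were called lower, whereas Hsp83 (0.35), Hsp68 (−0.26) and Hsp70Bb (−0.24) were not called. Hsc70-5, the mitochondrial chaperone gene, was called higher (0.69). Of 34 immune genes, 9 (26.5%) were called lower and 4 (11.8%) higher, beside 15.2% and 16.8% over all genes. With that library left out the counts were 2 and 0, and with the number as a random block 4 and 0. The receptor gene PGRP-LC (−0.76) and the NF-kappaB factor genes Dif (−0.67) and Rel (−0.41) were lowest in number 1 in every group, while the peptide genes Dpt (0.67), Mtk (0.95) and AttC (0.95) were not called.

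Genes with the largest differences were chosen with number 1 on 1 side in all 4 groups. Their agreement between groups follows from that choice. Further named symbols among them were higher: Zip89B, a zinc transporter family gene (1.66), Tina-1 (1.73) and Rbm13, an RNA-binding protein gene (1.51). yellow-d, of the yellow family, was likewise higher in every group (1.58). Lower in every group were Snp (−1.35), l(1)G0469 (−1.33), santa-maria, a scavenger receptor gene (−1.25), Ance, a peptidase gene (−1.19), MESR3 (−1.14) and Ten-m, a teneurin gene (−1.09). Of genes known only by a CG number, CG7433 was higher in number 1 in each group (2.32), and CG42876 (−2.37), CG7720 (−1.72) and CG9812 (−1.46) were lower.

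**Figure D4:**
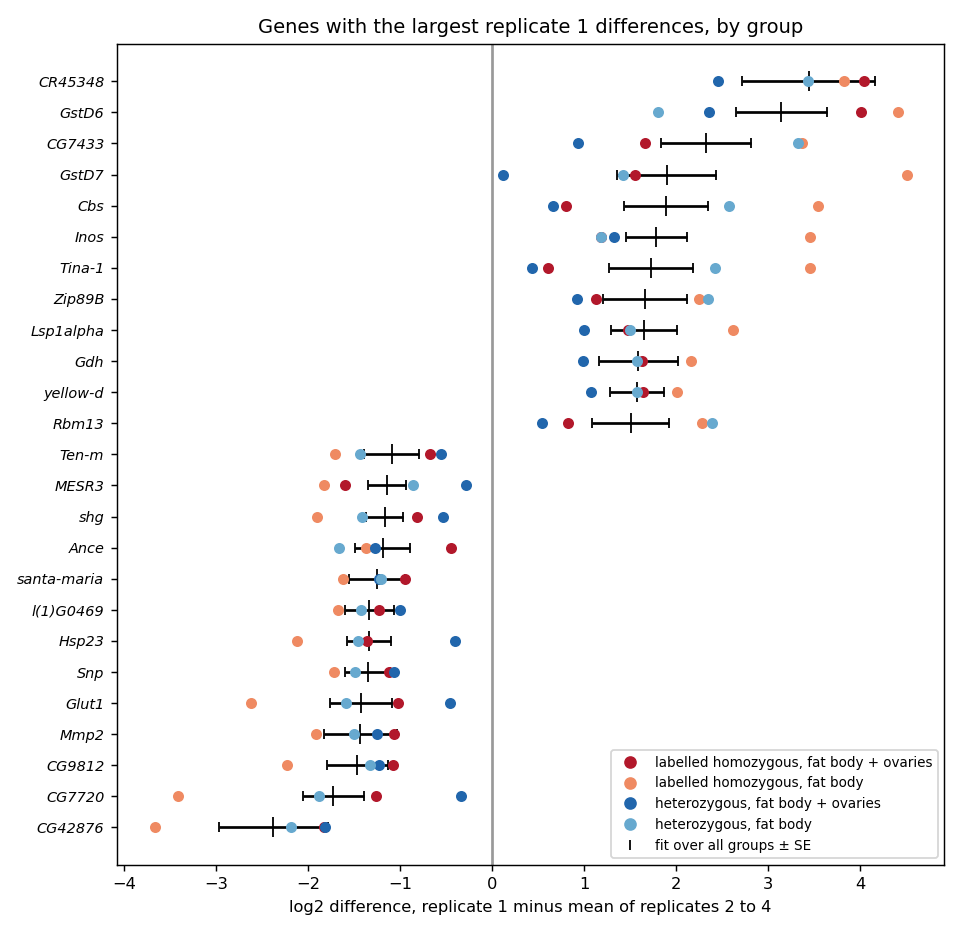
log2 difference of number 1 from the mean of numbers 2 to 4 for the genes with the largest differences in each direction, with a point for each of the 4 groups and a bar for the limma estimate over all groups ± SE. Every point lies on the same side of 0 for its gene, as the choice of genes requires, and fat body labelled homozygous is the farthest out for 21 of the 25 genes shown.

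Markers of other cell types were read beside these results, and several of their summed levels moved with number 1. Imaginal disc genes summed to 1352 to 1634 normalised counts in number 1, against 1702 to 2572 in numbers 2 to 4, without overlap. Most of that sum was ap, with 853, 970, 804 and 1177 in number 1. It was the 1 of 5 (20%) called lower. The list median was −0.31, and 2 of the 5 differences were positive. Ring gland genes summed to 4278 to 6070 against 4499 to 7872, with number 1 below its other 3 replicates in all 4 groups. Of 5 tested, 2 (40%) were called lower, beside 15.2% of all genes. Markers of trachea and cuticle summed to 83461 to 114908 against 93790 to 191741, with number 1 the lowest in 3 of the 4 groups. Nearly all of that sum was Cpr49Ac, with 83325, 82390, 106511 and 114458 in number 1, and it was the 1 of 10 called lower. The list as a whole did not fall, since 7 of the 10 differences were positive and their median was 0.85. Neuron and glia genes summed to 8657 to 13367 against 11520.0 to 15914, with number 1 the lowest in 3 groups. Nearly all of that sum was Syt1, with 8365, 9708, 12737.5 and 13069 in number 1, and it was the 1 of 5 called lower. The list median was −0.09, and 2 of the 5 differences were positive.

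Of 18 ovarian somatic genes 4 (22.2%) were called lower and 0 higher, beside 15.2% and 16.8% over all genes. Among the 4 were eya (−1.05) and zfh1 (−0.62), though in heterozygous fat body with ovaries eya was higher in number 1 (0.87). The summed level of the list lay below the other replicates in 3 of the 4 groups. It was 8073 in number 1 against 10640.4 to 11384 in fat body with ovaries labelled homozygous. In fat body labelled homozygous it was 4507 against 7155 to 8464, and in heterozygous fat body 6287 against 8733 to 9143. In heterozygous fat body with ovaries it was 11087 in number 1, inside the 10432 to 11942 of the others, as for several ecdysone genes above. The list was not particular to ovaries here, as its sums in fat body without them show. In numbers 2 to 4 the called gene fz2 had 4278 to 6133 normalised counts without ovaries and 2755 to 3808 with them. For zfh1 the order was the reverse, at 1300 to 1585 without and 1739 to 2265 with ovaries. A lower sum therefore cannot be read as less ovarian soma. Without fat body labelled homozygous replicate 1, 3 ovarian somatic genes and 1 ring gland gene were called lower, and 0 on the other marker lists just given.

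Muscle genes summed to 4775 to 6501 in number 1 against 3888 to 7322, with number 1 the highest in 3 groups. Of 15 tested, 2 (13.3%) were called higher, below the 16.8% over all genes, and 1 with that library left out. The median differences of the muscle list by group were 0.80, 0.08, 0.06 and −0.02 in the group order given above. Testis genes were also highest in number 1 in 3 groups, at sums of 198 to 294 against 173 to 265, with 0 of 5 called. Of 10 genes of hemocytes, the blood cells, 4 (40%) were called higher and 2 (20%) lower, beside 16.8% and 15.2% over all genes. With that library left out the counts were 0 and 1. Hml was at 384, 375, 242 and 265 against 57.9 to 296 (median 129). The summed level of the hemocyte list was 3769 to 4248 against 3153 to 6317, the lowest in number 1 in 2 groups. The germline list had 1 of 21 genes called higher and 0 lower, and its summed level was 11588 to 14481 in number 1 and 10492 to 15752 in numbers 2 to 4. Of 29 cell cycle genes, 1 was called in each direction, and with that library left out 0 on either list. Salivary glue genes summed to 51.5 to 93.5 in number 1, within the 4.99 to 2064 of the others, and 0 of 5 were called. Of the Malpighian tubule genes 1 of 4 was called higher, 0 with that library left out, and of gut genes 0 of 1 tested. The part of these markers and of depth in the differences was not tested.

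Whether the number 1 difference itself depended on the tissue was tested by an interaction in limma. The test called 0 of 7824 genes, with 905 at an unadjusted p under 0.05, while edgeR called 0 and DESeq2 36. CG8838 had the largest estimate among the 5 genes of smallest p, since its number 1 difference was 0.11 and 0.14 in the groups with ovaries, against −2.48 and −1.73 without them (adjusted p 0.342, limma). The dependence on genotype also gave 0 called genes, with 585 at an unadjusted p under 0.05, 0 by edgeR and 22 by DESeq2. CG32407 had the smallest p there, with number 1 differences of 4.49 and 3.70 in the groups labelled homozygous and −0.07 and 0.76 in the heterozygous ones (adjusted p 0.136, limma). A p that misses the threshold does not show that the groups behaved alike, and the spread of the difference was 0.836 in fat body labelled homozygous against 0.387 in heterozygous fat body with ovaries.

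The 12 libraries without number 1 allow a comparison that does not use it. It was added after 3 of the 4 number 2 libraries were seen at the far end of the first principal component, so number 2 too was chosen from its values, and its differences are a description with no p-value. Number 2 against numbers 3 and 4 called 582 of 7824 genes (7.44%) in limma, 201 higher (2.57%) and 381 lower (4.87%), and 471 in edgeR. The count was 69 without fat body labelled homozygous replicate 2 and 104 without fat body with ovaries labelled homozygous replicate 2. If each number were 1 collection, this would be 1 collection against 2. With the numbers as units in limma 0 genes were called and 915 were at an unadjusted p under 0.05, and with the number as a random block 535 were called. Of the 27 nucleolar genes, 22 were called lower and 0 higher in number 2 (median −0.84). Fib had 338, 42.5, 351 and 49.1 normalised counts in number 2, in the group order given above, against 75.8 to 650.4 (median 415) in numbers 3 and 4, a difference of −1.18 ± 0.30 (limma SE, 4 against 8 libraries).

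Several genes called higher in number 1 were called lower in number 2. Gdh had 1622, 1527, 1527 and 2212 normalised counts in number 2, against 3178 to 8119 (median 4804) in numbers 3 and 4, without overlap, and differed by −1.53 ± 0.19. Lsp1alpha had 217956, 138340, 180942 and 355073 in number 2 against 206839 to 560949 (median 456665), a difference of −0.99 ± 0.23. Zip89B (−1.46), Rbm13 (−1.15) and yellow-d (−0.86) were also called lower in number 2. Numbers 3 and 4 are part of what both comparisons are set against, so opposite signs are not independent of each other.

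The ecdysone and proteasome lists gave other counts in number 2. Of the 20 ecdysone genes, Eip55E alone was called, at −0.45 ± 0.12, and Hr4 was at −0.15 ± 0.20 and was not called. Of the 32 proteasome genes 0 were called, with a median of 0.04. Of the mitochondrial ribosomal protein genes 1 was called lower and 0 higher, and of the respiratory chain genes 1 and 0. Among the markers of other tissues, 2 of 5 ring gland genes, 2 of 10 hemocyte genes and 1 of 5 salivary glue genes were called higher. Over all genes 2.57% were called higher in number 2 and 4.87% lower. The glue sum was high in 1 number 2 library, fat body with ovaries labelled homozygous, at 2064, while the other 3 were at 110.4, 21.5 and 78.8.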

How the data were processed

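The authors deposited a signal for each of 16727 genes in 16 libraries, namely counts that they had scaled by a size factor per library (with DESeq2, per the file's name). Per the submitters' processing notes, the tools were Trimmomatic 0.36, STAR 2.5.2b with the dm6 genome, and featureCounts of Subread 1.5.0p3. Not given in the sources used here are the strand setting, the annotation used for counting and the treatment of multiply mapping reads. Dividing each nonzero value by the smallest one of its library gave whole numbers in 100% of cases within 1e-06 (largest deviation 2.14e-08), and these recovered reads gave total reads and the edgeR and DESeq2 alternatives. In heterozygous fat body with ovaries replicate 1 and fat body labelled homozygous replicate 4 the smallest value lies close to 1, so there the whole reads rest on direct division alone.

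Genes with a mean of at least 10 were kept (7824). CG7990 at 10.0 was the lowest kept and CG14931 at 9.99 the highest left out. Log2 values after adding 1 were fitted with limma 3.58.1 in R 4.3.3 (intensity trend, moderated variances), with the 4 groups as blocks and a term for number 1, plus its interaction with tissue or genotype in further fits. Tests were 2-sided at 0.05 after Benjamini-Hochberg adjustment across the kept genes. edgeR 4.0.16 (quasi-likelihood, TMM) and DESeq2 1.42.0 were alternatives. On simulated counts of 7824 genes for the number 1 comparison, limma recovered 91 of 100 genes changed by 1 log2 unit and 100 of 100 changed by 2. The simulated libraries were drawn independently, with the same dispersion for every gene and library. They hold no variation shared by number (correlation 0.127 in the real libraries), so these rates do not give the power in the real data.

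Replicate number 1 and the 34 gene lists were chosen with earlier results of these data known, and the nucleolar list and the fit of number 2 were added after values were seen. Named genes are, among called genes averaging at least 50 in the higher set and number 1 on 1 side in all 4 groups, the 10 named symbols with the largest difference in each direction and the 3 largest whatever the symbol, plus, from each list, up to 4 called genes of smallest p (1 where none was called). Other list members, among them Eip93F, Fib and those given with a difference only, were picked after their values were seen. Positions come from an Ensembl annotation of BDGP6, the same assembly as dm6, which held 16508 of the 16727 symbols. Precision is limited by 1 library per group and number. No sequences are printed.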

Additional observations from a re-analysis of the deposited data

Results flagged for a closer look

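A measure of how far 1 value of 4 stands apart (the gap to its nearest neighbour over the whole range, above Dixon's 95% critical value) was applied to 3 kinds of values, and chance marks about 1 in 20 groups of 4. For the number 1 differences of 117 named genes over the 4 groups, it marked 4. Inos stood apart in fat body labelled homozygous at 3.45, against 1.18 to 1.32 in the other groups, and mRpL10 in the same group at 0.741, against 0.376 to 0.403. In heterozygous fat body with ovaries tai stood apart at −0.0132, against −0.834 to −0.816, and Thor at 0.0168, against −1.15 to −1.01.

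For 16 library measures in each of the 4 groups (64 cases), it marked 5. Heterozygous fat body replicate 1 held 29741067 reads, against 26349478 to 26870100 in its other replicates. The ovarian somatic list, read here in tissue without ovaries, summed to 6287 normalised counts in that library, against 8733 to 9143. Neuron and glia genes summed to 9893 in fat body labelled homozygous replicate 1, against 14566 to 15347, and Syt1 alone held 9708 of that 9893. In number 2, salivary glue genes summed to 2064 in fat body with ovaries labelled homozygous, against 18.05 to 149.7, and gut genes summed to 579 in heterozygous fat body with ovaries, against 116 to 155.

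For the levels of the named genes within each group (468 cases), it marked 56, of which 51 were number 1 libraries, for which these genes had been chosen. The other 5 were Mal-A6 (4579.8 against 6574 to 6766), NimB4 (2542 against 1805 to 1817) and LysX (567 against 109 to 135) in heterozygous fat body with ovaries replicate 2, Sgs5 (561 against 3.92 to 42.1) in fat body with ovaries labelled homozygous replicate 2, and ap (1383 against 1159 to 1181) in heterozygous fat body replicate 4. None of these patterns was followed up.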

How the results depend on the processing

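The count of 2501 called genes for number 1 stayed within 1.5 times under both other pseudocounts, both other filters, scaling to the same total, edgeR, DESeq2 and the omission of number 2. Leaving out 1 library at a time gave 633 to 2867 called genes, 306 to 1455 higher and 327 to 1412 lower, and without fat body with ovaries labelled homozygous replicate 1 the lower ones were 785. With the replicate number as a random replicate block 1422 were called (748 higher, 674 lower), and with the number as the unit 0 in either direction. Within fat body with ovaries 1 was called (0 higher, 1 lower), within libraries labelled homozygous 1151 (613 and 538), and within heterozygous ones 0 in either direction. Without heterozygous fat body replicate 2 and fat body labelled homozygous replicate 1 together, 438 were called (231 higher, 207 lower). The dependence on tissue gave 36 called genes in DESeq2 and 0 to 6 with 1 library left out. The dependence on genotype gave 22 in DESeq2, 1 with a pseudocount of 10 and 0 to 1 with 1 library left out. Number 2 against numbers 3 and 4 gave 69 to 632 called genes with 1 library left out, among them 104, 339 and 306 without replicates 2 and 4 of fat body with ovaries labelled homozygous and replicate 4 of heterozygous fat body with ovaries. It gave 0 with the number as the unit of the replicate block and 535 with the number as a random block. Members of all lists called were 184 higher and 95 lower, against 53 and 39 without fat body labelled homozygous replicate 1, 41 and 27 also without heterozygous fat body replicate 2, and 113 higher with the random replicate block. The causes were not tested.

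Of 3620 values of named genes under alternatives, 2994 kept direction and side of the threshold, 622 lost the call and 4 turned, all in uncalled genes: LysX (−0.68 to 0.28 with 1 library left out) at 0.28 without heterozygous fat body replicate 1, 0.15 within fat body with ovaries and 0.82 within libraries labelled homozygous, and Sgs5 at −0.39 within those libraries. A library's 0 allows up to 3 reads, and totals from 19022106 reads limit what low genes can show. The median of all genes moved by less than 0.1 under every scaling tried.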
